A study of Mus musculus with 15 samples.

Results

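Trh, Nkx1-2, Pglyrp1 and Lhpp are 4 of 49585 genes counted in mouse E14 embryonic stem cells under 5 culture media. They were chosen by their measured RNA levels, which differed strongly between cells given PD032 alone and cells given an Aurora kinase A inhibitor, with no numeric threshold. Those differences are therefore described without a test. All 4 had enough counts to be among the 15223 genes tested.

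Polyadenylated RNA was sequenced in 15 libraries, 3 from each medium, all from wild-type cells of the E14 line. Per the labels, the cells had been maintained with Lif (4 ng/ml), CHIR99021 (3 µM) and PD0325901 (0.4 µM). They were then placed in Matrigel of the growth factor reduced kind, 2000 cells to the µl, under N2B27 medium. The 5 media added 2iLif, FGF2/Activin (FAK in the protocol), PD032, an Aurora A inhibitor (Aurka inh) or both inhibitors (PD032+ Aurka inh, here the combination), and no group had N2B27 alone. PD032 is not expanded in the labels, the Aurora compound is not named, and doses and times of treatment are missing from them. PD0325901 blocks MEK, the kinase above ERK, and CHIR99021 blocks GSK3, which mimics Wnt signalling.

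The 4 genes have unlike roles. Trh encodes the precursor of thyrotropin-releasing hormone, a short peptide that the hypothalamus uses to drive the pituitary. Nkx1-2 encodes a homeobox transcription factor of the caudal epiblast, where the cells that build the trunk arise. Pglyrp1 encodes a secreted protein that binds bacterial peptidoglycan and is stored in neutrophil granules. Lhpp encodes a phosphatase that acts on phosphohistidine and related bonds. Canonical Wnt signalling stabilizes beta-catenin, which acts with TCF and LEF factors on target genes. Axin2 is a feedback inhibitor that is widely read as its target, and in embryonic stem cells the pathway supports the naive state.

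On mm10, in GENCODE M21, Trh (ENSMUSG00000005892) spans 92242061 to 92244650 on the minus strand of chromosome 6. The other 3 genes lie on chromosome 7. Pglyrp1 (ENSMUSG00000030413) runs on the plus strand from 18871331 to 18890459. Nkx1-2 (ENSMUSG00000048528) runs on the minus strand from 132594878 to 132599637 and Lhpp (ENSMUSG00000030946) on the plus strand from 132610638 to 132706420. Nkx1-2 and Lhpp are therefore divergent neighbours, transcribed away from each other from starts 11001 bases apart. All 4 are protein-coding, and their values are counts over whole genes.

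The 250 bases before the RefSeq starts of Trh (chr6:92244651-92244900, minus strand) and Nkx1-2 (chr7:132599638-132599887, minus strand) on GRCm38.p6 are shown because both genes had an RNA pattern close to that of Axin2. Capitals mark matches to the motifs named after them.
Trh: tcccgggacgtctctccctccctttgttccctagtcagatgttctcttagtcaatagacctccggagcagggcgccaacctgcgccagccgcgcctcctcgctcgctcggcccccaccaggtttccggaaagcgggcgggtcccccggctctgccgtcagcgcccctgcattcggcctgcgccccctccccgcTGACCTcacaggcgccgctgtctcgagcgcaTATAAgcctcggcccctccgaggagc
Nkx1-2: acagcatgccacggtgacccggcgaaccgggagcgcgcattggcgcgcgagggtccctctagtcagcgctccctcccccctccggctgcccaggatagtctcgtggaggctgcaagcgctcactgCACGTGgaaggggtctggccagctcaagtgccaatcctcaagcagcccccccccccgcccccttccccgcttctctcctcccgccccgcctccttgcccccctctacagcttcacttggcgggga
In Trh the first capitals are TGACCT, the nuclear receptor site AGGTCA read on the other strand, and the second are TATAA, the core of a TATA box, whose last base lies 22 bases before the start. In Nkx1-2 they are CACGTG, an E-box. These 3 motifs were picked after the sequences were read. Matches on either strand occurred in 14% (AGGTCA), 22.8% (TATAA) and 6.02% (CACGTG) of 32851 RefSeq windows of this length. CTTTGA, the core of the TCF and LEF site, was searched on both strands. It matched in neither window, nor in that of Pglyrp1, against 13.8% of all windows. ATCAAAG, found in 3.21% of them, contains that core on its other strand. Its absence here therefore follows from that of CTTTGA. Both printed windows were GC-rich, with 68.8% G and C in Trh and 69.6% in Nkx1-2 against a median of 52.4% over all windows. They held 25 and 19 CpG sites, against a median of 6. The RefSeq start of Pglyrp1 lies inside the M21 span given above, so its window (18884440 to 18884689, plus strand) overlaps an M21 exon of the gene and is not upstream of the M21 start. It had 55.6% G and C and 3 CpG sites. Promoter windows were matched for 3 of the 4 genes.

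Values below are CPM, read counts scaled to a common library total, and group values are mean ± SD over n = 3 libraries. Total counts ran from 15199507 to 24202544 per library. The quasi-likelihood test of edgeR, over all 15223 genes, gave each fold change and adjusted p. Since nothing says that replicates came from separate cultures, a p-value here reflects only how libraries of a group vary, which may be technical. In the labels the libraries of 2iLif and FGF2/Activin are named in another style than the inhibitor libraries, so levels set across those styles cannot be told apart from a batch difference. All 8 embryonic stem cell markers had a mean of at least 1 CPM in every group, with summed levels from 1716 CPM in a PD032 library to 4531 CPM in a 2iLif library. Single markers differed more: Klf4 had 337.6 CPM in 2iLif, 14.28 in PD032 and 3.798 in FGF2/Activin, and Esrrb 862.6, 177.7 and 30.26. By edgeR 6 of the 8 fell in FGF2/Activin against 2iLif, 1 rose and 1 did not pass (median log2 fold change -2.487). Over all tested genes 32.6% fell and 33.3% rose there (median -0.01). These markers therefore do not show that the cells were alike in state across media. Markers of fibroblasts summed to at most 21.1 CPM in any library, those of primitive endoderm to 8.24 CPM and those of mesoderm to 22.6 CPM. In bulk RNA, fewer cells expressing a gene and less RNA per cell cannot be told apart.

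Trh was among the most abundant RNAs of the cells in 2iLif and in Aurka inh. Its CPM was 740.5, 783 and 791.8 in the 2iLif libraries, 745.5, 751.5 and 699.8 in Aurka inh, and 500.3, 409.3 and 494.5 in the combination. In FGF2/Activin it was 56.03, 59.92 and 59.73, and in PD032 13.8, 10.79 and 14.23. The libraries of 2iLif and Aurka inh overlapped, and every other step in this order was free of overlap. Per kilobase of exon Trh stood at 557.6 ± 19.8 CPM in 2iLif, rank 37 of 15199 genes with a length, and at rank 5100 in PD032.

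Nkx1-2 was close to the detection limit in PD032 and low in FGF2/Activin. Its 3 PD032 libraries held 3, 4 and 3 counts, 10 in all (exact 95% Poisson interval 4.80 to 18.4, counting error only). In FGF2/Activin it had 1.25, 1.28 and 0.958 CPM, and in 2iLif 26.19, 24.96 and 27.09 CPM. Aurka inh gave 34.6, 40.8 and 34.7 CPM and the combination 41.2, 51.7 and 36.4 CPM. These last groups overlapped, and both lay above every 2iLif library.

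Pglyrp1 had the widest range, 471-fold between the highest and lowest group means. It had 2, 4 and 1 counts in FGF2/Activin and 6, 1 and 4 in PD032, and these groups overlapped. In 2iLif it reached 24.24, 25.03 and 25.66 CPM, in Aurka inh 33.7, 58.9 and 33.0 CPM and in the combination 67.3, 82.7 and 62.1 CPM. The Aurka inh mean of 41.8 ± 14.8 CPM rested in part on replicate 2, which stood above both others. Markers of neutrophils were near 0 in every group: their 8 genes summed to at most 0.319 CPM in any library, and S100a8 and S100a9 had 0 counts throughout.

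Lhpp varied least, 4.48-fold from its lowest to its highest group mean, and was well expressed everywhere. PD032 gave 33.0, 29.7 and 32.9 CPM, FGF2/Activin 37.9, 35.7 and 36.1 CPM and 2iLif 47.2, 48.7 and 53.4 CPM. The combination gave 106.6, 112.9 and 109.5 CPM and Aurka inh 141.3, 143.4 and 143 CPM. Its 5 groups did not overlap at any step, and the groups with the Aurora inhibitor were the highest ones. Nkx1-2 differed more between groups than this neighbour: the ratio of Nkx1-2 to Lhpp CPM ran from 0.507 to 0.555 in 2iLif, 0.243 to 0.284 in Aurka inh and 0.00391 to 0.00722 in PD032.

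**Figure D1:**
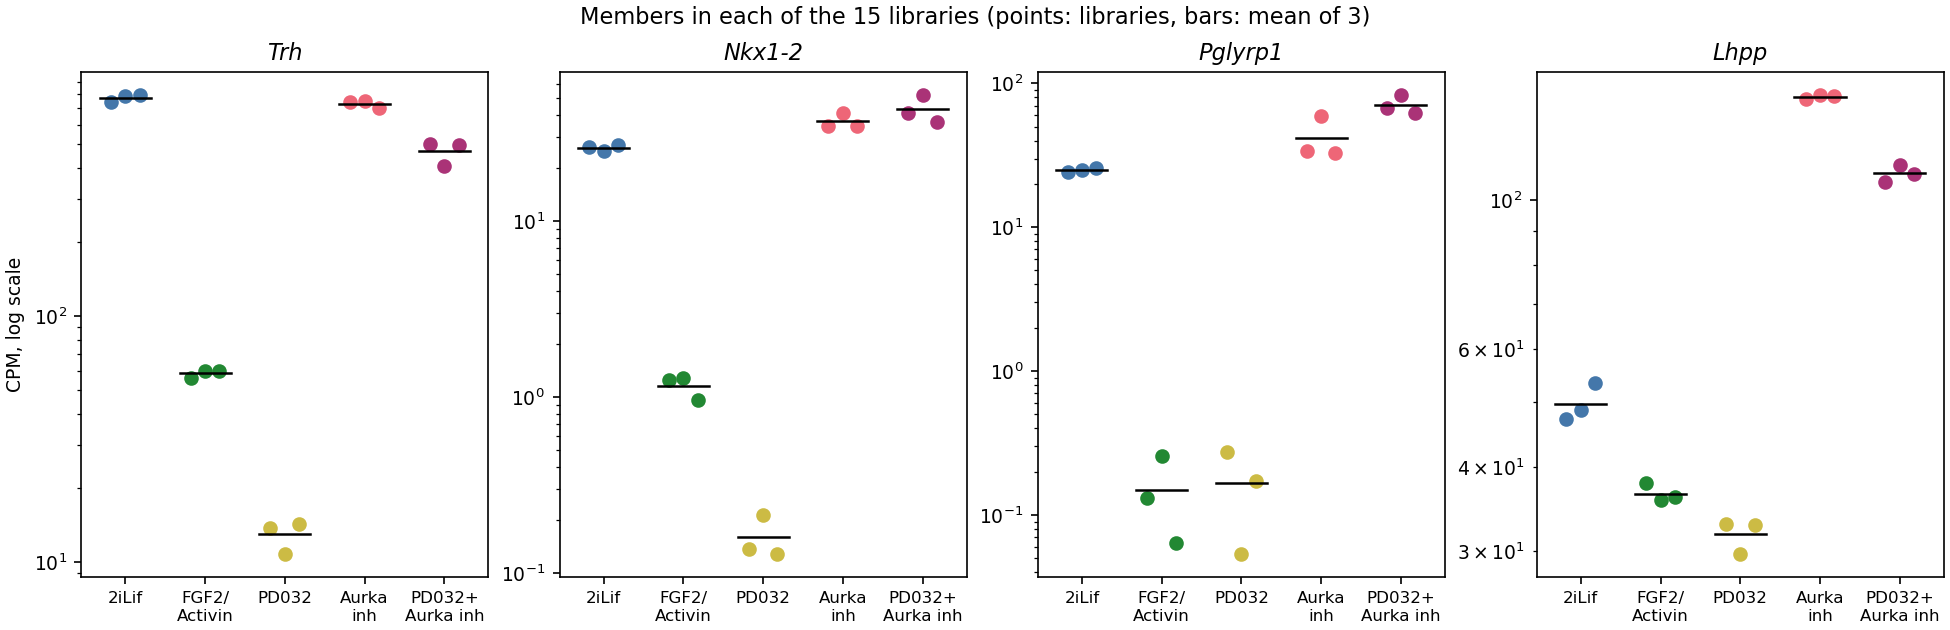
CPM of each gene in the 15 libraries on log axes that differ between panels, with points for libraries and bars for group means of 3. Trh, Nkx1-2 and Pglyrp1 are high in 2iLif and in both media with the Aurora inhibitor, while Lhpp is highest in Aurka inh at 142.6 CPM.

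The values that chose the genes are the differences from PD032 alone. The combination exceeded PD032 by log2 5.17 (SE 0.0993) for Trh, 8.04 (SE 0.217) for Nkx1-2, 8.62 (SE 0.344) for Pglyrp1 and 1.78 (SE 0.0573) for Lhpp. For Aurka inh the same differences were 5.81, 7.81, 7.86 and 2.16. By absolute fold change Pglyrp1 ranked 2 and Nkx1-2 ranked 5 of 15223 genes in the combination against PD032, whereas Lhpp ranked 974. In both comparisons, which share the PD032 libraries, all 4 genes were higher without overlap. These are the differences they were chosen for, although the rule named neither a direction nor a condition on overlap. Over all tested genes 23.1% were higher without overlap in the combination and 20.4% in Aurka inh, and by edgeR 20% rose and 23.8% fell in the former and 19.7% rose and 25.8% fell in the latter.

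FGF2/Activin against 2iLif used libraries that the stated rule did not use. The genes were chosen with earlier results of these data known, so the choice is not shown to be independent of these libraries. All 4 genes fell in FGF2/Activin, in a comparison where 32.6% of tested genes fell and 33.3% rose. Pglyrp1 went from 24.97 ± 0.709 CPM in 2iLif to 0.150 ± 0.0971 CPM (log2 -7.31, SE 0.422, edgeR adjusted p = 2.46e-10). Nkx1-2 went from 26.1 ± 1.07 to 1.16 ± 0.175 CPM (log2 -4.48, SE 0.175, edgeR adjusted p = 2.35e-12). Trh fell from 771.8 ± 27.4 to 58.6 ± 2.19 CPM, 13.2-fold (edgeR adjusted p = 1.09e-14). Lhpp fell by much less, from 49.8 ± 3.24 to 36.6 ± 1.15 CPM (log2 -0.44, SE 0.0593, edgeR adjusted p = 5.55e-06). The libraries of both media did not overlap for any of the 4 genes, which held in the lower direction for 37.9% of tested genes.

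Setting the combination against Aurka inh compares cells with and without PD032 when the Aurora inhibitor is present in both. The rule had set both groups against PD032 but not against each other. Here the 4 genes parted. Trh fell from 732.3 ± 28.3 to 468.1 ± 51.0 CPM (log2 -0.65, SE 0.0785, edgeR adjusted p = 1.07e-05) and Lhpp from 142.6 ± 1.10 to 109.7 ± 3.17 CPM (log2 -0.38, SE 0.0537, edgeR adjusted p = 4.68e-05). Pglyrp1 rose from 41.8 ± 14.8 to 70.7 ± 10.7 CPM (log2 0.76, SE 0.170, edgeR adjusted p = 0.00235). Without Aurka inh replicate 2 its log2 fold change was 1.08. Nkx1-2 had 43.1 ± 7.83 against 36.7 ± 3.53 CPM and did not pass (log2 0.23, SE 0.106, edgeR adjusted p = 0.105). It passed with replicate number as a block (adjusted p = 0.00776), without Aurka inh replicate 2 (0.0368) and without replicate 3 of the combination (0.0206), and had 0.507 without its replicate 2. Of all tested genes 18.6% rose and 16.3% fell.

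**Figure D2:**
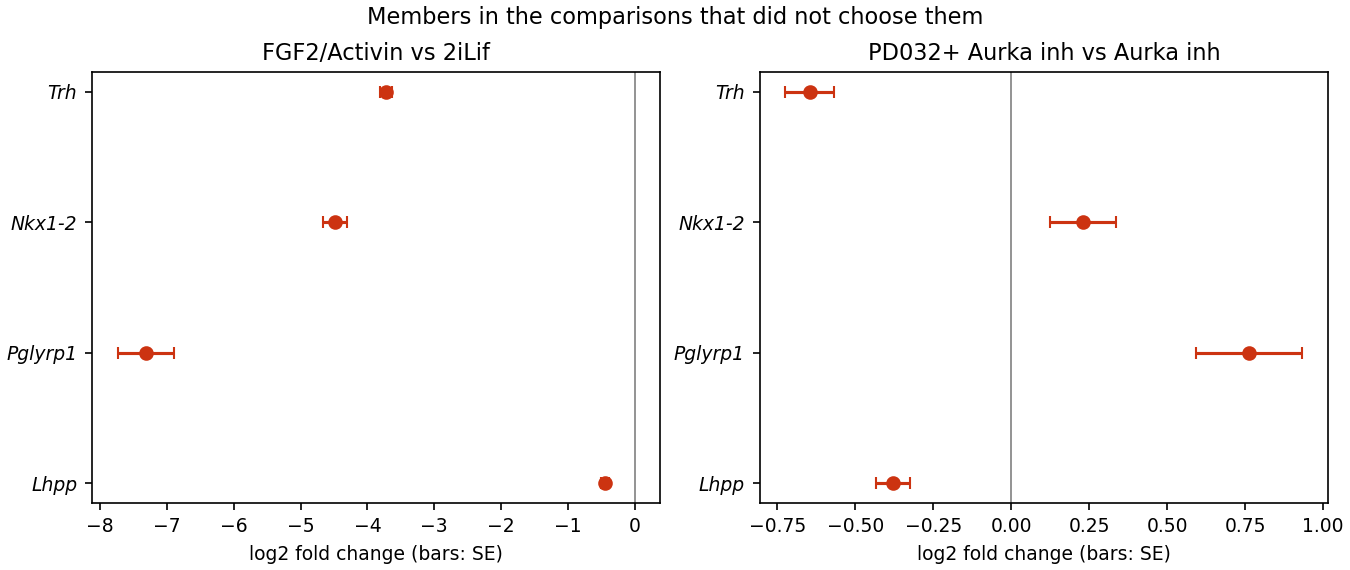
Log2 fold change with its SE for the 4 genes, FGF2/Activin against 2iLif on the left and the combination against Aurka inh on the right, on axes of different scale. All 4 lie below 0 on the left, from -0.44 for Lhpp to -7.31 for Pglyrp1, and on the right Trh and Lhpp lie below 0 and Pglyrp1 above.

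Likeness to other genes was measured as Pearson's r of log2 CPM over the 15 libraries, across 10587 genes with at least 5 CPM in their highest group. The libraries form 5 groups, so r mainly reflects the group means and is given as a description. The inhibitor libraries among them also served to choose the 4 genes, so part of the likeness follows from that choice. With Spearman's rho, which uses ranks, none of the 5 genes most like each was the same. Trh was most like Axin2 (r = 0.995), followed by Ror2, a receptor for Wnt5a (0.984), Mllt6 (0.981), the serotonin receptor gene Htr1b (0.979) and Nkx1-2 itself (0.979). Axin2 had 124.1 ± 6.01 CPM in 2iLif, 97.2 ± 4.69 in Aurka inh, 80.1 ± 2.24 in the combination, 12.8 ± 1.34 in FGF2/Activin and 4.11 ± 0.627 in PD032. Trh thus followed the same order of groups as Axin2. The ratio of Trh to Axin2 CPM stayed between 2.54 and 7.62 across the 15 libraries, lowest in PD032 and highest in Aurka inh, while the group means of Trh differed 59.6-fold.

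Nkx1-2 was most like Grsf1, which encodes an RNA-binding protein (r = 0.987), then Rerg (0.984), Htr1b (0.983), Cnpy1 (0.982) and Axin2 (0.98). Pglyrp1 was most like Porcn (r = 0.988), which encodes the acyltransferase that lipidates Wnt ligands for secretion, at 16.2 ± 0.799 CPM in Aurka inh, 16.1 ± 1.18 in the combination, 10.8 ± 0.466 in 2iLif, 1.87 ± 0.368 in PD032 and 1.415 ± 0.267 in FGF2/Activin. Akap8 (0.983), Grsf1 (0.979), Zfp317 (0.977) and Asb1 (0.977) came next, with smaller ranges. Akap8 had 217.1 ± 5.42 CPM in FGF2/Activin and 284.1 ± 5.18 CPM in the combination. Lhpp was most like Oat (r = 0.971), then Sp8 (0.966), a zinc finger factor and Wnt target, Pla2g1b (0.96) and Rbbp7 (0.96). Among the 4 genes r ran from 0.768 for Trh and Lhpp to 0.979 for Trh and Nkx1-2.

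**Figure D3:**
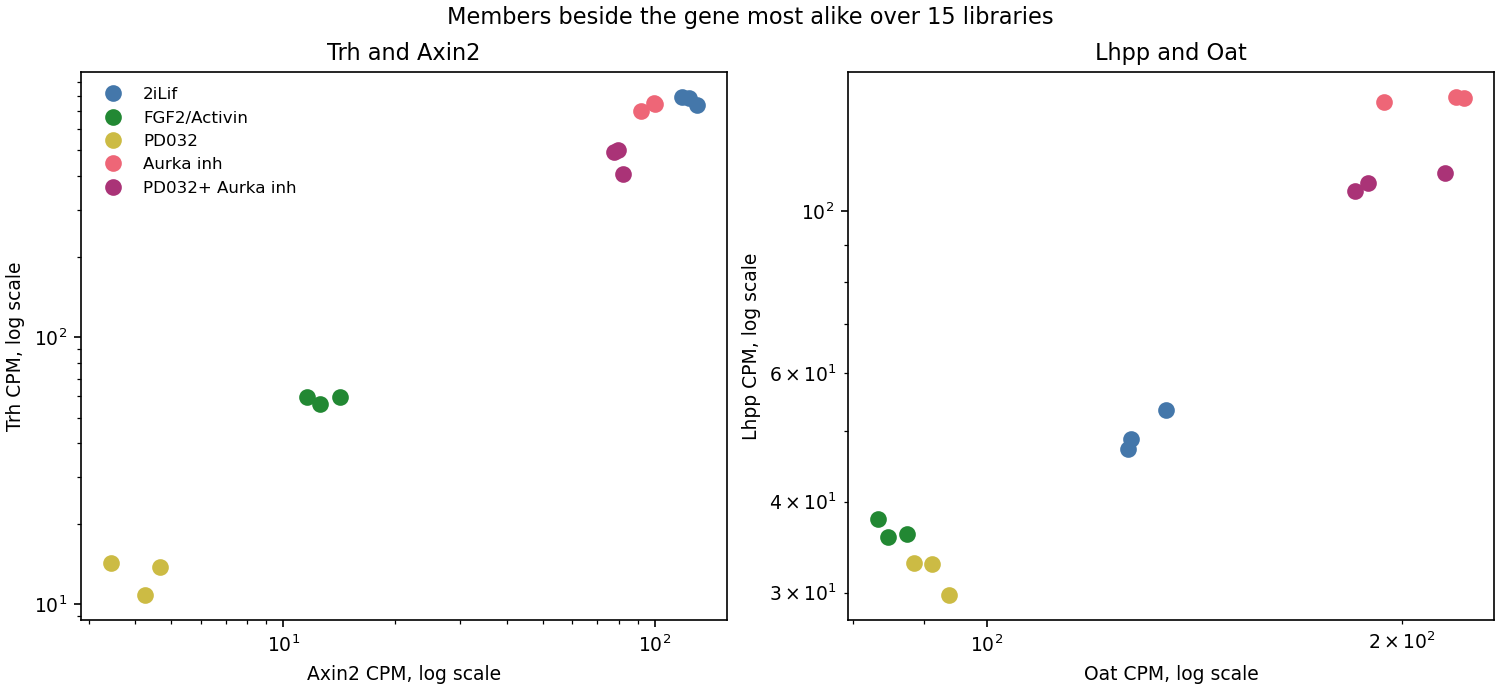
Each point is a library, coloured by medium, with Trh against Axin2 on the left and Lhpp against Oat on the right, in CPM on log axes. Trh and Axin2 order the media alike, from PD032 at 12.9 and 4.11 CPM to 2iLif at 771.8 and 124.1 CPM.

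**Figure D4:**
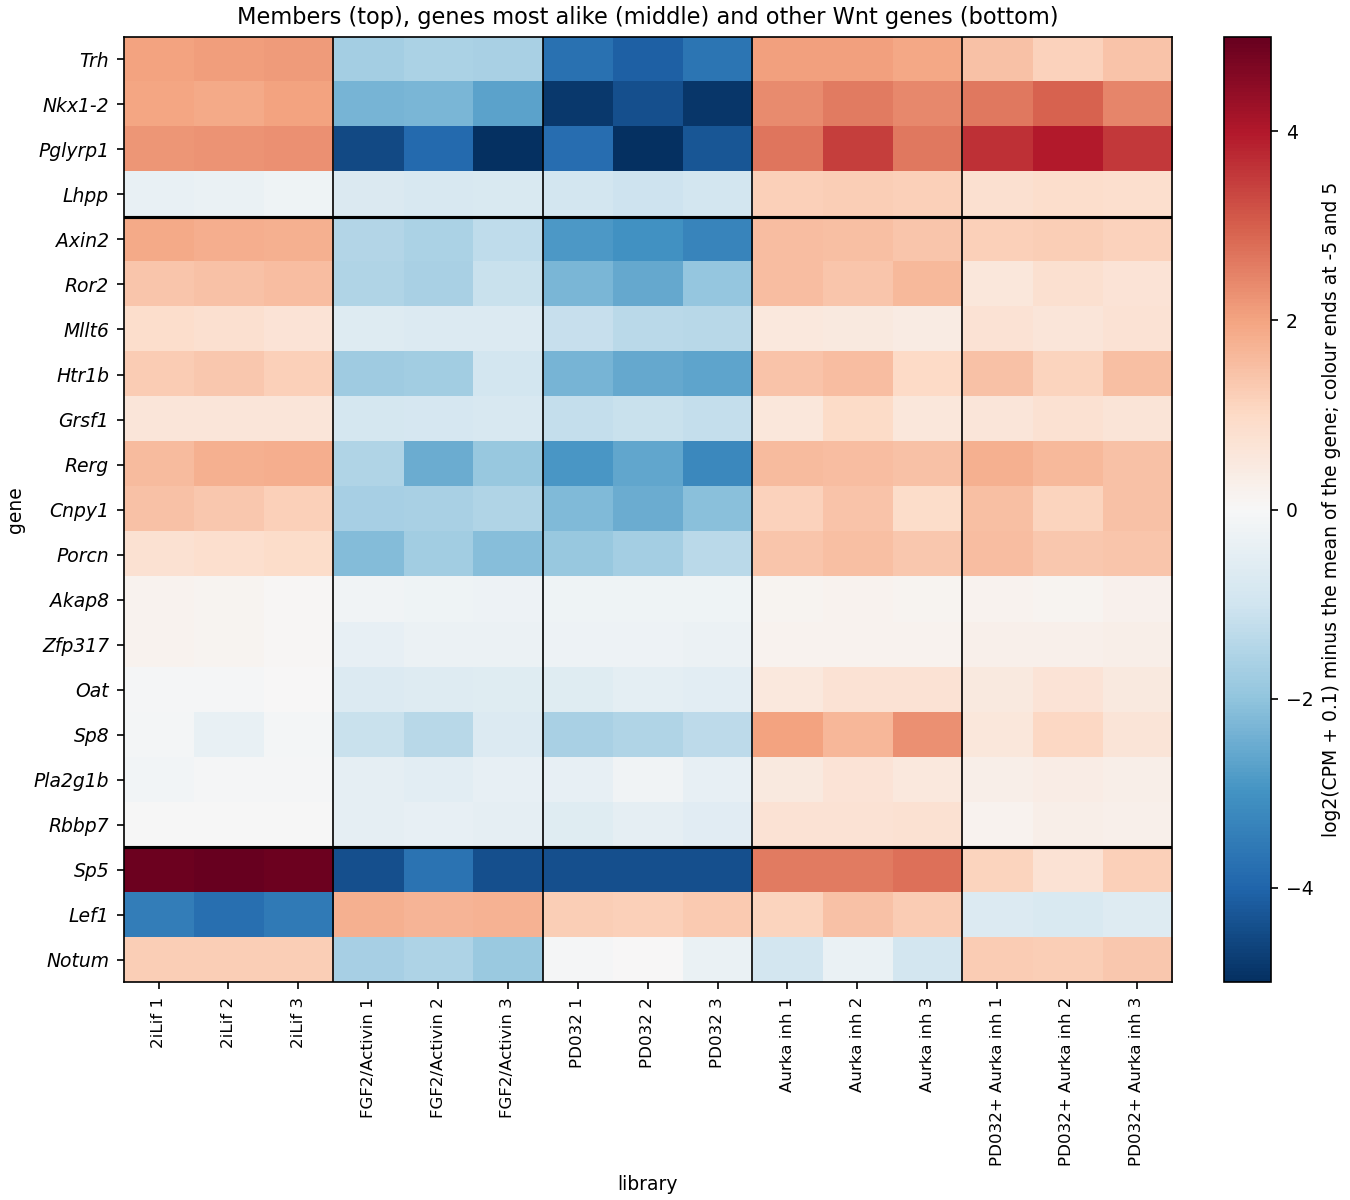
Log2(CPM + 0.1) of each gene minus its mean over 15 libraries, with the 4 genes on top, the 4 genes most like each below and Sp5, Lef1 and Notum at the bottom. Red is above and blue below the mean of the gene, and colour ends at -5 and 5. Lef1 shows a pattern unlike the top rows, with its lowest level in 2iLif.

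Oat, which encodes ornithine aminotransferase and is the gene most like Lhpp, is also a neighbour in the genome: it lies 34.2 kb from Lhpp and 18.5 kb from Nkx1-2, on the other side of Nkx1-2. In FGF2/Activin against 2iLif Oat fell from 129.5 ± 4.58 to 85.2 ± 2.11 CPM (log2 -0.60, edgeR adjusted p = 4.41e-07). Fam53b, which lies 5.66 kb beyond the end of Lhpp and is needed for Wnt signalling in zebrafish, fell from 42.6 ± 1.97 to 18.97 ± 1.42 CPM (log2 -1.17, edgeR adjusted p = 6.69e-09). Over the 11 other tested genes whose starts lie within 1 Mb of that of Nkx1-2, 3 fell, 4 rose and 4 did not pass, beside 32.6% of all tested genes that fell. The third gene that fell was Cpxm2, a carboxypeptidase-like gene at 0.748 CPM in 2iLif (log2 -1.92, edgeR adjusted p = 0.00218). Chst15, 278 kb from Nkx1-2, rose by log2 6.48 (edgeR adjusted p = 1.56e-11), and Fgfr2 (2.06), Ctbp2 (0.68) and Zranb1 (0.24) rose too. Next to Fam53b, Eef1akmt2 had a log2 fold change of -0.01 (edgeR adjusted p = 0.962) and Abraxas2 -0.08 (0.246).

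Both genes were also higher with the Aurora inhibitor than with PD032 alone. Nkx1-2 and Lhpp were chosen for that difference, so only Oat and Fam53b are tested here. Oat is a neighbour by position, but it is also the gene most like Lhpp over libraries that include these. Its p-values are therefore not separate from that likeness. Oat rose from 91.3 ± 2.71 CPM in PD032 to 196.2 ± 16.2 in the combination (log2 1.10, edgeR adjusted p = 1.04e-09) and 211.5 ± 15.3 in Aurka inh (log2 1.21, edgeR adjusted p = 3.3e-10). Fam53b rose from 26.2 ± 1.99 CPM to 78.5 ± 4.34 (log2 1.58, edgeR adjusted p = 3.33e-10) and 81.4 ± 8.14 (log2 1.63, edgeR adjusted p = 2.02e-10). In the combination against PD032, Eef1akmt2 (log2 -0.02, edgeR adjusted p = 0.893), Abraxas2 (-0.01, 0.846), Zranb1 (0.09, 0.172) and Chst15 (-0.21, 0.598) did not pass. Of the 11 other genes 2 rose, 1 fell and 8 did not pass in this comparison, beside 20% of all tested genes that rose. In Aurka inh against PD032 5 of the 11 rose, beside 19.7%: with Oat and Fam53b also Chst15 (log2 1.45, edgeR adjusted p = 0.000233), Zranb1 (0.37, 1.27e-05) and Ctbp2 (0.33, 0.000714), while Eef1akmt2 (0.25, 0.0712) and Abraxas2 (-0.10, 0.142) did not pass. The gene that fell in both was Fgfr2, whose M21 model spans Oat, Nkx1-2, Lhpp and Fam53b on the minus strand. This model runs from 130162451 to 133123350. Fgfr2 counts among the 11 only by the start of the model, 524 kb from that of Nkx1-2. Between the combination and Aurka inh neither Oat (log2 -0.11, edgeR adjusted p = 0.195) nor Fam53b (-0.05, 0.646) passed. Gm16764, annotated antisense to Nkx1-2, had 0 counts in all libraries.

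**Figure D5:**
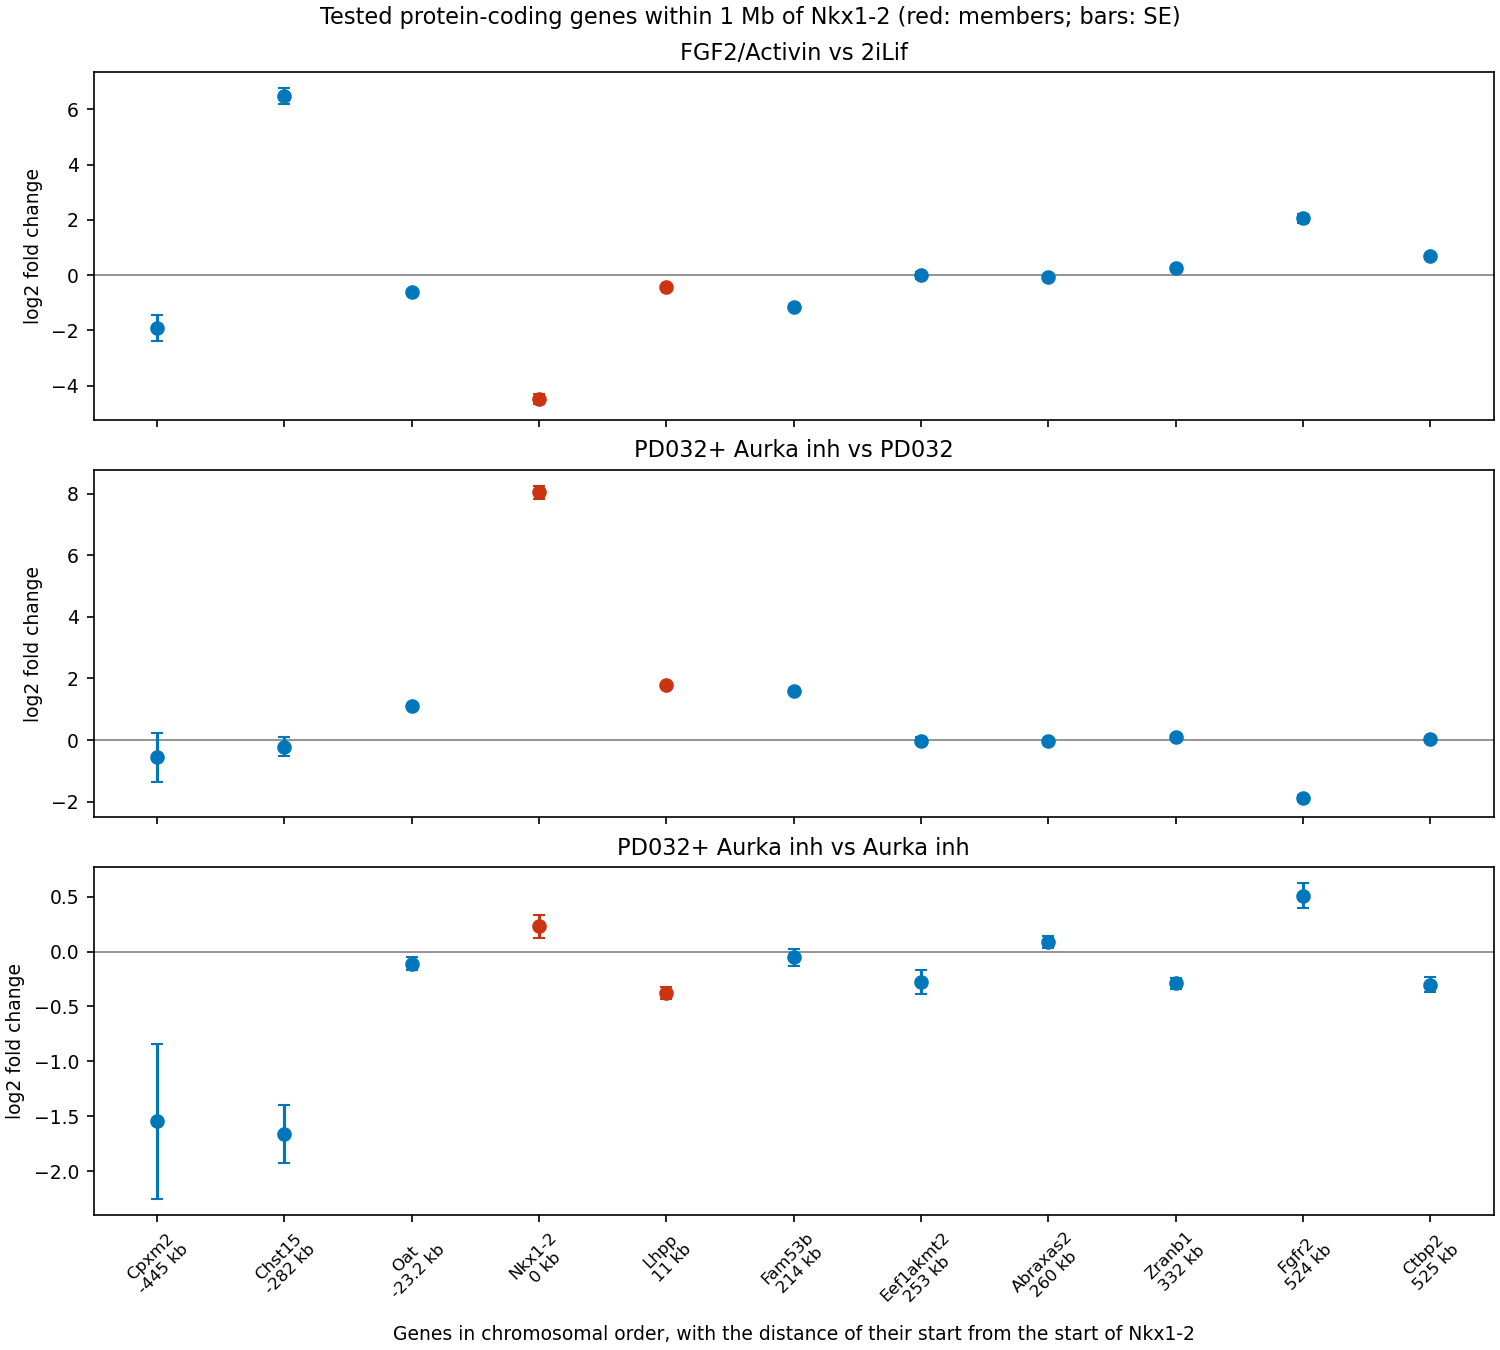
Log2 fold change with its SE for tested protein-coding genes within 1 Mb of Nkx1-2, in chromosomal order and evenly spaced, with the distance between starts under each name and Nkx1-2 and Lhpp in red. Oat and Fam53b lie below 0 in FGF2/Activin against 2iLif and above 0 in the combination against PD032, where the position of Nkx1-2 and Lhpp follows from how they were chosen.

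Around Trh, 5 of the 6 nearest protein-coding genes also fell in FGF2/Activin and rose in the combination against PD032, beside 32.6% and 20% of all tested genes, and Nr2c2 passed in neither. In Aurka inh against PD032 only Rbsn (log2 0.21, edgeR adjusted p = 0.0166) and Mrps25 (0.51, 0.000639) of the 6 rose, Prickle2 fell, and Adamts9 (0.827), A730049H05Rik (0.462) and Nr2c2 (0.93) did not pass. Over all tested genes 19.7% rose and 25.8% fell there. A730049H05Rik lies within the span of Adamts9 and Mrps25 overlaps Nr2c2, so the 6 are not separate loci. A730049H05Rik was also low, with 16 counts in all in FGF2/Activin. Rbsn, the nearest tested gene, fell by log2 0.74 in FGF2/Activin (edgeR adjusted p = 8.48e-08) and rose by 0.36 in the combination against PD032 (0.000361). Prickle2, a planar polarity gene 126 kb away, fell by 1.60 (edgeR adjusted p = 9.47e-09) and rose by 1.15 (3.87e-07). Unlike Trh, Prickle2 fell in Aurka inh against PD032, by log2 1.199 (edgeR adjusted p = 1.95e-06), and rose in the combination against Aurka inh, by 2.35 (1.56e-09). Ccdc61, whose end lies 0.424 kb from that of Pglyrp1 on the opposite strand, fell by log2 1.30 in FGF2/Activin (edgeR adjusted p = 2.22e-10), against -0.14 in Aurka inh against PD032 (0.115). Nova2, a neuronal splicing factor gene 35.4 kb from Pglyrp1, also fell in FGF2/Activin (log2 -2.23, edgeR adjusted p = 9.73e-08), but fell as well in the combination (-1.11, 0.000343) and in Aurka inh (-1.76, 9.35e-06) against PD032, where Pglyrp1 was higher. Mill2, Psg17, Psg19 and Nanos2 had too few counts to test.

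A list of 28 Wnt targets and feedback genes, chosen like the 4 genes with earlier results known, had 25 tested members. In FGF2/Activin against 2iLif 12 fell, 10 rose and 3 did not pass, with a median log2 fold change of -0.40 beside -0.01 for all genes. Of all tested genes 32.6% fell and 33.3% rose there. Sp5, a zinc finger target of Wnt signalling, fell from 65.4 to 0.0213 CPM and Cdx1, a caudal homeobox gene, from 9.54 to 0.0218 CPM. Notum, which inactivates Wnt ligands, fell from 51.3 to 6.70 CPM. Lef1, a Wnt-responsive transcription factor, rose from 1.78 to 75.2 CPM. In the combination against PD032 14 rose, 7 fell and 4 did not pass, with a median of 0.47 beside 0.01. Over all tested genes 20% rose and 23.8% fell there. In Aurka inh against PD032 16 rose and 5 fell, beside 19.7% and 25.8% of all tested genes. Sp5 had 0 CPM under PD032, 4.216 under the combination and 13.25 under Aurka inh. Lef1 did not follow Axin2: PD032 and Aurka inh gave means of 53.53 and 54.72 CPM, the combination 13.83. Mean Notum was lower under Aurka inh (13.3 CPM) than under PD032 (19.85 CPM), with overlapping libraries. It reached 52.65 CPM under the combination. In the combination against Aurka inh 13 fell, 2 rose and 10 did not pass, while 16.3% of all tested genes fell and 18.6% rose. Axin2 had a log2 fold change of -0.28 there (edgeR adjusted p = 0.00588). Trh and Lhpp also fell, whereas Pglyrp1 rose and Nkx1-2 did not pass. Across the list r with Trh ran from -0.704 for the Wnt receptor gene Fzd7 to 0.995 for Axin2.

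Genes of the caudal epiblast, the region where Nkx1-2 is known, went both ways. Of 9 tested, 4 rose and 2 fell in FGF2/Activin against 2iLif, beside 33.3% and 32.6% of all tested genes. Wnt8a, a Wnt ligand, rose from 0.132 to 1.57 CPM and Evx1, a homeobox gene, fell from 1.03 to 0.107 CPM. In Aurka inh against PD032 4 rose and 3 fell, beside 19.7% and 25.8% of all tested genes. Wnt8a had 28.0 CPM in Aurka inh against 0.588 in PD032 (log2 5.54, edgeR adjusted p = 5.28e-13), and Cyp26a1, which degrades retinoic acid, fell from 5.23 to 0.0535 CPM. In the combination against Aurka inh, where Nkx1-2 did not pass, 5 of the 9 fell and 1 rose. The shares over all tested genes were 16.3% and 18.6%. Wnt8a fell there to 5.78 CPM (log2 -2.27, edgeR adjusted p = 1.54e-09). Nkx1-1, the closest relative of Nkx1-2, was too low to test.

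A list of enzymes that process prohormones or break down the Trh hormone, with its receptors, had 8 tested genes. In FGF2/Activin against 2iLif 6 fell and 2 rose, beside 32.6% and 33.3% of all tested genes. One of the 6 was Pgpep1, which removes pyroglutamate and makes no hormone, from 41.2 to 30.6 CPM. Pcsk1, which cuts prohormones, fell from 8.37 to 1.72 CPM, Cpe, which trims the cut ends, from 23.6 to 3.74 CPM, and Qpct, which forms the pyroglutamate of the hormone, from 5.04 to 0.730 CPM. Cpd, a related carboxypeptidase, rose from 16.2 to 31.2 CPM. In Aurka inh against PD032, where Trh was 56.3-fold higher, none of the 8 rose by edgeR and 4 fell. Of all tested genes 19.7% rose and 25.8% fell there. One of the 4 was Pam, which amidates peptides, from 39.9 to 25.3 CPM. In the combination against PD032 2 of the 8 rose, 3 fell and 3 did not pass. Over all tested genes 20% rose and 23.8% fell there. The receptor Trhr and the degrading enzyme Trhde had 0 counts in all 15 libraries. The 8 neuronal markers summed to 431.9 to 446.7 CPM in 2iLif, of which Stmn2 gave 350.9 CPM on average, and to 135.8 to 143.9 CPM in FGF2/Activin. They summed to 198.3 to 216.8 CPM in PD032, 138.9 to 205.5 in Aurka inh and 323.5 to 379.8 in the combination, so they did not order the media as Trh did. Their part in the Trh result was not tested.

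Relatives of Pglyrp1 were scarce. Pglyrp2, Pglyrp3 and Pglyrp4 were too low to test. Of 4 tested sensors of bacterial wall fragments and their partners, 3 fell and 1 rose in FGF2/Activin against 2iLif. Of all tested genes 32.6% fell and 33.3% rose there. Nod2 fell from 5.76 to 0.299 CPM and Nod1 from 3.26 to 0.580 CPM, and Tlr2 rose from 11.45 to 16.99 CPM. In the combination against Aurka inh Nod1, Ripk2 and Tlr2 rose, the largest change being log2 0.75 for Nod1 (edgeR adjusted p = 0.0086). The share of all tested genes that rose there was 18.6%. Against PD032, 3 of the 4 rose in the combination and 1 did not pass, beside 20% of all tested genes that rose. In Aurka inh 1 rose and 3 did not pass against PD032, beside 19.7%. A list of phosphatases for phosphohistidine, pyrophosphate and related bonds, which also held the histidine kinases Nme1 and Nme2, had 9 tested genes. In FGF2/Activin against 2iLif 3 rose and 1 fell, up to log2 0.58 for Pgp, which clears phosphoglycolate. In the combination against PD032 1 fell, Prune1, from 99.4 to 76.96 CPM, and 8 did not pass, while Lhpp stood at 109.7 against 31.9 CPM. Of all tested genes 20% rose and 23.8% fell there. In Aurka inh against PD032 3 rose, Nme1, Nme2 and the pyrophosphatase gene Ppa1, up to log2 0.85 for Nme2 (edgeR adjusted p = 0.0159). Prune1 fell there by 0.57 (edgeR adjusted p = 8.83e-08). The shares over all tested genes were 19.7% that rose and 25.8% that fell.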

How the data were processed

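STAR, DESeq2 and mm10 are named, per the submitters' processing notes. Versions, counting tool, annotation and strand: not given in the sources used here, which means that antisense or overlapping transcripts may add to a gene. The deposited count table held raw whole-number counts for 15 libraries and is the base of every fit. A second table, deposited on a log2 scale by the authors, served only as a check. Its Lhpp difference between Aurka inh and PD032 was 2.04, against 2.16 in log2 CPM here, and that of Trh 5.435 against 5.82. The 2 genes with few counts in PD032 differed by much less in the deposited values. Nkx1-2 had 3.75 there against 7.11 here, and Pglyrp1 3.89 against 7.29. The deposited scale has a floor: Gm16764, with 0 counts, stood at 5.5664 in every library. In PD032 the deposited values lay near it, from 5.8977 to 5.9957 for Nkx1-2 and from 5.7817 to 6.0487 for Pglyrp1.

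Of 49585 genes, 49326 were matched by identifier in GENCODE M21. After filterByExpr, 15223 genes were scaled by TMM and fitted over 5 groups with the quasi-likelihood test of edgeR 4.0.16 (R 4.3.3), with Benjamini-Hochberg adjustment and a threshold of 0.05. An SE is the fold change over the root of the F statistic. Log2 CPM used a prior count of 2, and the fit was tested on simulated data. Alternatives were RLE scaling, library size alone, no or a stricter filter (mean of at least 1 CPM), DESeq2 1.42.0, only the libraries compared, each library left out, and replicate number as a block. Same-numbered inhibitor libraries deviated together (r from 0.17 to 0.483 across genes), which comes from the data and not the labels. FGF2/Activin and 2iLif did not (-0.026 to 0.00713).

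The genes and lists were chosen with earlier results of these data known. Named beside the 4 genes were the 5 genes most like each (1 of them is not reported here), the 3 nearest protein-coding genes on each side, up to 4 genes of a list with the largest change that passed, Axin2, Sp5, Lef1 and Notum. Others, such as Ripk2, Zranb1, Ctbp2, Pgpep1, Cyp26a1 and Nkx1-1, were picked after their values were seen, as was the window of 1 Mb around Nkx1-2. Promoter sequences are RefSeq's, on GRCm38.p6. Protein sequences were not used here.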

Additional observations from a re-analysis of the deposited data

How the results depend on the processing

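The 4 genes kept their direction in all 13 alternative fits of FGF2/Activin against 2iLif and of the combination against Aurka inh, and 101 of 104 such values stayed on the same side of the threshold. The other 3 are Nkx1-2 in the combination against Aurka inh: it passed with the replicate block (log2 0.20, adjusted p = 0.00776) and in 2 fits that left out a library. Over all fits that left out a library its log2 fold change ran from 0.0827, which did not pass, to 0.341. Its adjusted p ran from 0.00776 to 0.507, and that of Pglyrp1 reached 0.04. The cause was not tested. Fam53b, which did not pass there, ran from -0.13 to 0.004997 with a library left out. With only the 6 libraries compared, 1788 genes rose in the combination against Aurka inh, where 2837 rose with all 15, from fewer libraries and 14189 genes tested. The replicate block gave 3547 and 3634 genes higher and lower there, and 5355 and 5435 in FGF2/Activin against 2iLif, where the libraries share only a number. It changed no other call on the 4 genes. With a prior count of 0.5, 4 of the 5 genes most like Trh, Nkx1-2 and Pglyrp1, and all 5 of Lhpp, were the same. With Spearman's rho none was. Counts of 1 to 6 in a library limit Nkx1-2 and Pglyrp1 in PD032 and Pglyrp1 in FGF2/Activin, so their fold changes are imprecise.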
